A study of Mus musculus with 48 samples.

Results

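Brown fat (BAT) was compared gene by gene with white fat from beside the epididymis (eWAT) in wild-type mice kept at room temperature, as BAT minus eWAT. The 8 libraries were chosen by their labels, 4 of BAT (biological replicates 12, 15, 17 and 18) and 4 of eWAT (12, 13, 15 and 18), out of 48 in the series. Whether equal numbers mark the same animal is not given in the sources used here, and the main test did not pair them. The series holds liver, BAT and eWAT of male littermates that carry or lack Agt, the gene of angiotensinogen, in their hepatocytes, at 2 housing temperatures. All mice had eaten a Western diet with 21% milk fat and 0.2% cholesterol over 12 weeks. The wild-type group is labelled hepAGT+/+ and lived at 20 to 22 °C (RT). For comparison, the same pair of depots was used from 8 libraries of hepAGT+/+ mice at 30 °C (thermoneutrality, TN) and from 8 libraries of hepAGT-/- mice at RT. The driver of the deletion, the floxed state of the controls and the animals' age are not given in the sources used here. No chow-fed mice are among the groups, so every depot difference below is that of Western-diet mice.

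Brown adipocytes burn fatty acids and glucose in many mitochondria, where uncoupling protein 1 (UCP1) lets protons return without making ATP, so that energy leaves as heat. Cold acts on them through sympathetic nerves, noradrenaline and beta-adrenergic receptors, and warmth near thermoneutrality takes much of that drive away. White adipocytes store triglyceride in a single large droplet, release fatty acids on demand and secrete hormones such as leptin. The epididymal depot is visceral, is covered by mesothelium, and gathers macrophages and matrix in obese male mice.

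The upstream sequences of 4 genes are shown. Ucp1 and Fabp3, a fatty acid binding protein, were higher in BAT, and Lep (leptin) and Agt were higher in eWAT. The sequences are the 250 bases before the RefSeq transcription start on GRCm38.p6, 5′ to 3′ on the gene's strand. Capitals mark matches to 3 kinds of motif, searched on both strands. These were the TATA box (TATAAA, or the variant forms spelled TATAAG or else TATATA), the half-site of nuclear receptors (AGGTCA) and the half-site of the cAMP response element (TGACG). Ucp1 lies at chr8:83290098-83290347 (+), Fabp3 at chr4:130308488-130308737 (+), Lep at chr6:29059971-29060220 (+) and Agt at chr8:124569707-124569956 (-).
Ucp1: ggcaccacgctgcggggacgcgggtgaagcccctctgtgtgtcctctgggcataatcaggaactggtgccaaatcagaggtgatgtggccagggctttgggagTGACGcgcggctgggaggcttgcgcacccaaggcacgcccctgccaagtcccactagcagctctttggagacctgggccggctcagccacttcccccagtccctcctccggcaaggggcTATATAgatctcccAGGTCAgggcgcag
Fabp3: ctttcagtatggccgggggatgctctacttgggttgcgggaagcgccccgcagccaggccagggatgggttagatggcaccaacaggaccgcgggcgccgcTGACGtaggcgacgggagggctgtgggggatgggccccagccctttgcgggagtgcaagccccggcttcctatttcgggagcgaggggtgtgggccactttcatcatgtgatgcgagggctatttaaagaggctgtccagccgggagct
Lep: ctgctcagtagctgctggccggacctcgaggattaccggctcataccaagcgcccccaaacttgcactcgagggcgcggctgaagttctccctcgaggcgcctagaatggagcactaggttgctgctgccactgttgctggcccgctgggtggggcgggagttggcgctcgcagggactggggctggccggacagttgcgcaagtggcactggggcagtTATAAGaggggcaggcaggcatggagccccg
Agt: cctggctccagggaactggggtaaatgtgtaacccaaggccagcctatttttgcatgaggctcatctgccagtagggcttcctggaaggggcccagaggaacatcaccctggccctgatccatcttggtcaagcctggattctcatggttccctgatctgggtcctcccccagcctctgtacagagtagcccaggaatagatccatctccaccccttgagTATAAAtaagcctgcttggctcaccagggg

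In the Ucp1 window TATATA stood 28 to 23 bases before the start, AGGTCA 14 to 9 and TGACG 147 to 143. Fabp3 had TGACG 149 to 145 bases before the start and no TATA match. The Lep window had its variant TATA match 31 to 26 bases before the start. That of Agt, with the plain TATA box, was 30 to 25 bases before the start, the usual distance of such a box. Such matches were common. Of 32851 windows of this length, 12.4% held TATAAA. The shares of the other motifs were 6.65% (TATAAG), 5.25% (TATATA), 14.0% for the nuclear receptor half-site and 17.8% for the cAMP half-site. Windows of genes beyond 2-fold higher in BAT held TGACG in 26.5% and those of genes higher in eWAT in 16.1%, beside 24.6% of all tested genes. Median CpG counts per window were 15, 9 and 14 in the same 3 sets, and TGACG itself holds a CpG. AGGTCA was in 13.8% and 11.2% of the BAT and eWAT windows, beside 11.3% of all tested genes. Longer elements were rare: TGACGTCA was in 2.64% of the BAT and 0.876% of the eWAT windows, beside 2.33% of all tested genes. TCAAGGTCA, the element of oestrogen-related receptors, was in 6 BAT windows (0.467%) and 4 eWAT windows (0.195%), beside 0.28% of all tested genes. The longer motifs contain the half-sites, and the letters searched were chosen after the windows had been read. A match describes letters, not binding.

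Values are CPM, counts brought to the same library size with TMM factors, which take account of the few genes that fill a large share of a library. Library totals ran from 25.3 to 39.4 M counts. Transcripts of the mitochondrial genome made up 19.7 to 25.3% of BAT counts and 4.23 to 5.37% of eWAT counts, and the TMM factors were 0.737 to 0.945 in BAT and 1.21 to 1.31 in eWAT. The first principal component held 69.2% of the variance and separated the depots. The labels fitted the brown adipocyte markers Ucp1 and Elovl3, whose sum was 4905 to 8534 CPM of library totals in BAT and 1.54 to 5.91 in eWAT. All marker sums are on that scale, without TMM factors. Some libraries carried transcripts of neighbouring tissue, and their part in the results was not tested except where values without them are given. In eWAT 18 the 24 epididymis markers summed to 1060 CPM and the 10 sperm markers to 80.7, against at most 10.7 and 11.5 in the other eWAT libraries. The mesothelium sum was 230 and 182 in eWAT 13 and 18 and 59.6 to 65.9 in eWAT 12 and 15, and the hepatocyte sum 3252 and 3131 against 1445 and 1269. Most of the hepatocyte sum in eWAT 12 and 15 was Cyp2e1, so that sum alone does not mark neighbouring tissue. Skeletal muscle markers summed to 682.5 in BAT 15 and 200.1 in BAT 17, against 64.9 to 110 in the other 6 libraries. Endothelial markers were highest within BAT in BAT 12, at 694.5 against 221 to 262. In bulk tissue, fewer cells of a type and less RNA per cell cannot be told apart.

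The depots differed in many genes. Of 16624 genes tested, 8483 (51.0%) differed at an adjusted p under 0.05, 3874 (23.3%) higher in BAT and 4609 (27.7%) higher in eWAT. Beyond 2-fold, 1514 genes (9.11%) were higher in BAT and 2199 (13.2%) in eWAT, 22.3% in all. In 8214 genes (49.4%) the 4 BAT and 4 eWAT libraries did not overlap. The split between depots depends on the scaling: BAT had 45.7% of the called genes with TMM, 47.4% with RLE factors and 17.4% with library totals alone (1773 higher in BAT and 8402 in eWAT), where the median of all genes moved by -0.67 on the log2 scale. Beyond 2-fold the share of BAT was 40.8% with TMM and 18.1% with library totals. Changes below are TMM-scaled, and groups whose direction turns with library totals are named. P-values measure the spread between libraries of a depot, taken as independent, and genes beyond 2-fold were tested against a difference of 2-fold, not 0.

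**Figure D1:**
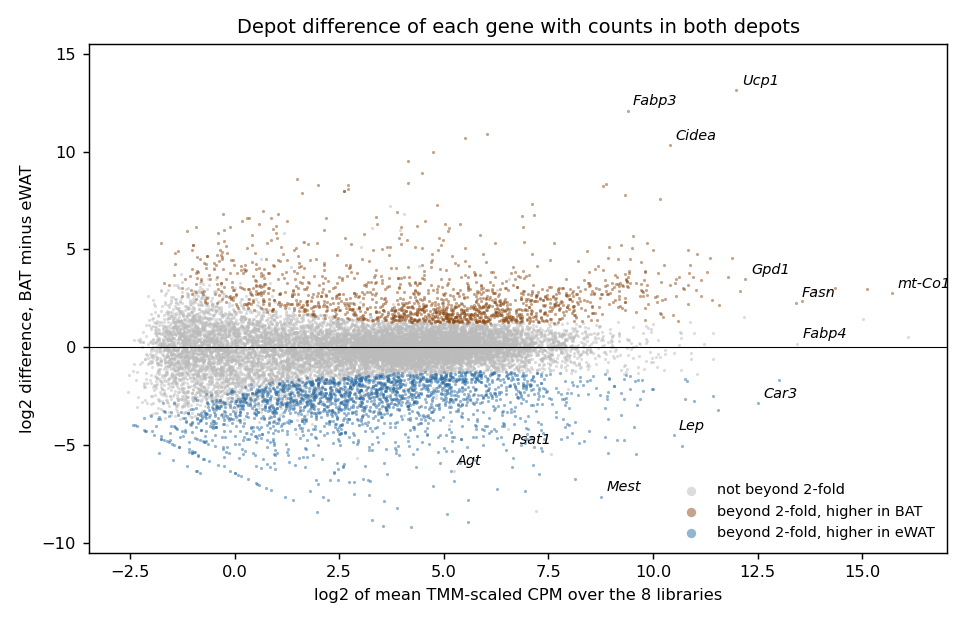
Depot difference (y, log2 of BAT over eWAT) against mean level (x, log2 CPM over the 8 libraries) for tested genes with counts in both depots, coloured where the difference passed the test beyond 2-fold. Ucp1 lies at a log2 of 13.13, Mest at -7.64 and Fabp4 at 0.19.

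Ucp1 and the genes that work beside it set BAT apart. Library values are given in the order BAT 12, 15, 17 and 18 and eWAT 12, 13, 15 and 18. Ucp1 stood at 5020, 10980, 8398 and 8241 CPM in BAT and at 0.626, 0.389, 0.843 and 1.80 CPM in eWAT, a log2 difference of 13.13 (SE 0.60, adjusted p = 8.09e-08). Every BAT library was far above every eWAT library, and BAT 12 was the lowest of its depot. Elovl3, an elongase of very long fatty acids induced by cold, measured 175, 342, 297 and 284 CPM in BAT and 0.918, 2.38, 0.375 and 3.09 in eWAT (log2 7.34, SE 0.67, adjusted p = 4.10e-05). Cidea, a droplet protein of brown fat, measured 1799, 3041, 3238 and 2732 CPM in BAT and 1.08, 1.88, 1.41 and 4.09 in eWAT (log2 10.32, SE 0.53, adjusted p = 1.58e-07). For each of these BAT 12 was again the lowest BAT library, while the depots stayed far apart.

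**Figure D2:**
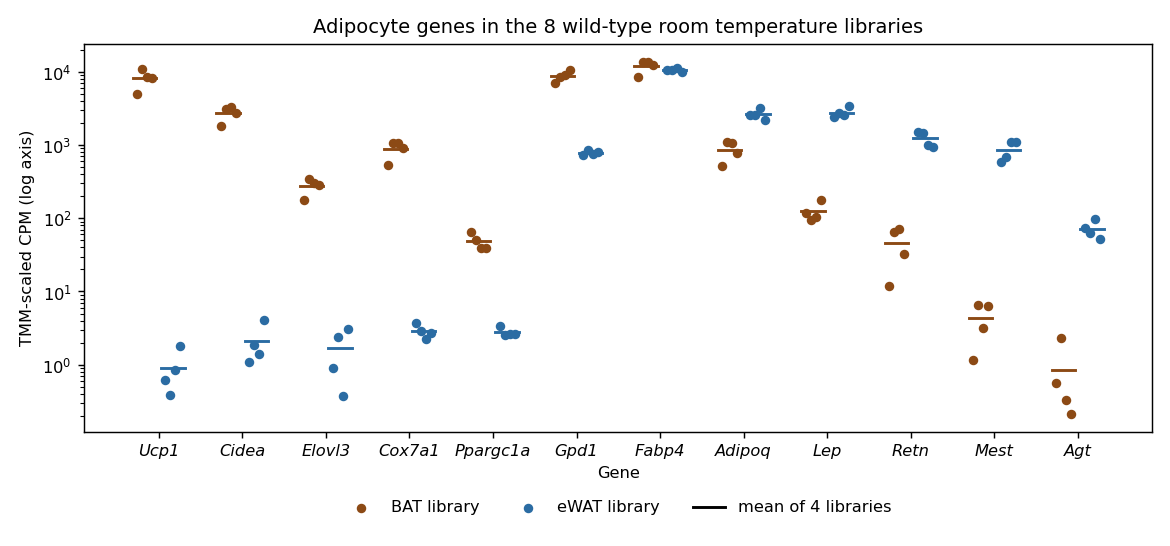
Level of 12 adipocyte genes in each library (points, TMM-scaled CPM on a log axis) with the mean of the 4 libraries of each depot (bars). The genes from Ucp1 to Gpd1 lie higher in BAT, Fabp4 overlaps between the depots, and those from Adipoq to Agt lie higher in eWAT.

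Of 41 genes of brown identity and thermogenesis, all tested, 31 were higher in BAT, 2 higher in eWAT and 8 not called, with a median log2 difference of 2.93 against -0.08 over all genes. The effector genes led. Cox7a1 and Cox8b, muscle-type subunits of cytochrome c oxidase, were 8.26 and 7.55 higher on the log2 scale (SE 0.31 and 0.47, adjusted p = 1.39e-08 and 6.59e-07). Acot11, an acyl-CoA thioesterase, was at 770 to 1320 CPM in BAT and 2.29 to 4.13 in eWAT (log2 8.33, SE 0.30). The transcriptional regulators differed less, 13 of 20 being higher in BAT with a median of 1.37. Ppargc1a, the coactivator of mitochondrial biogenesis, was at 65.7, 51.0, 39.7 and 39.3 CPM in BAT and 3.34, 2.55, 2.67 and 2.63 in eWAT (log2 4.13, SE 0.21, adjusted p = 4.88e-08). BAT 12, lowest for Ucp1, was the highest library for Ppargc1a. Its partner Esrra, an oestrogen-related receptor, was even across libraries: 146 to 148 CPM in BAT and 24.6 to 32.2 in eWAT (log2 2.39, SE 0.12). Zbtb16, a zinc finger factor on the same list, went the other way (log2 -2.22, SE 0.29, adjusted p = 9.45e-05). Ehmt1, a histone methyltransferase that works with PRDM16, overlapped, with a log2 difference of 0.01 (SE 0.14, adjusted p = 0.963).

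Genes of mitochondrial respiration were mostly higher in BAT. Of 81 nuclear genes of oxidative phosphorylation 76 were called higher in BAT and 1 higher in eWAT, with a median log2 difference of 2.81. All 37 of complex I, all 4 of complex II and all 9 of complex III were among them, with medians of 2.72, 3.21 and 3.17. Differences within complex I ran from 1.80 to 3.49, so that no member stood far from the rest. Complex IV had 13 of 16 and ATP synthase 13 of 15. Sdhb, the iron-sulphur subunit of complex II, was at 843, 1471, 1554 and 1315 CPM in BAT and 82.9, 91.2, 80.8 and 92.6 in eWAT (log2 3.90, SE 0.21, adjusted p = 7.76e-08). Uqcrc2, a core protein of complex III, was at 1540 to 2382 CPM in BAT and 124.6 to 166.5 in eWAT (log2 3.78, SE 0.19). The 4 genes not called were Cox4i2, Cox6a2 and Cox6b2 of complex IV, named after their values were seen, and Atp5g3. Atp5g1, of the c ring of ATP synthase, was listed higher in eWAT (0.981 to 8.15 CPM in BAT, 14.3 to 26.6 in eWAT, log2 -2.67, SE 0.62, adjusted p = 0.0066), and Atp5g3 overlapped (log2 -0.07, SE 0.14, adjusted p = 0.707). Atp5g1 has near-identical copies elsewhere in the genome, so how its reads were shared among copies is uncertain.

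All 13 protein-coding transcripts of the mitochondrial genome were higher in BAT too, with a median log2 difference of 3.48. mt-Co1, the catalytic subunit of complex IV, was at 77420, 105000, 103800 and 89720 CPM in BAT and 14020, 12170, 14430 and 14700 in eWAT (log2 2.77, SE 0.19, adjusted p = 3.65e-07). mt-Cytb (log2 3.00, SE 0.22) and mt-Nd1 (log2 3.01, SE 0.23) differed by nearly the same amount. mt-Atp6 had the largest difference of the 13, 5.09 (SE 0.33), and is uncertain because near-identical nuclear copies can take its reads.

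The cycle that feeds respiration followed the same direction. Of 19 genes of pyruvate entry and the TCA cycle 18 were higher in BAT (median log2 3.30), all 12 TCA cycle enzymes included. Suclg1, of succinyl-CoA synthetase, differed by 4.34 (SE 0.17) and Pdhb, of pyruvate dehydrogenase, by 3.89 (SE 0.18). Pcx, pyruvate carboxylase, which supplies oxaloacetate for glyceroneogenesis and fatty acid synthesis, was the single member higher in eWAT (log2 -0.46, SE 0.13, adjusted p = 0.011). That call was lost without eWAT 13 and 18 or without BAT 15 and 17 (adjusted p up to 0.111 over the alternatives).

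Fatty acid oxidation separated by compartment. All 15 mitochondrial beta-oxidation genes were higher in BAT, with a median log2 difference of 3.02, whereas the 6 peroxisomal genes had a median of 0.34 with 3 higher in BAT and 1 in eWAT. With library totals the peroxisomal median was -0.34, so its sign depends on the scaling. Acaa2, the last thiolase of the mitochondrial spiral, was at 2414, 4021, 4058 and 3798 CPM in BAT and 96.0, 125, 98.7 and 129 in eWAT (log2 4.99, SE 0.23, adjusted p = 3.08e-08). Acadvl, the very long chain dehydrogenase, and Hadhb, of the trifunctional protein, differed by 4.74 (SE 0.19) and 4.59 (SE 0.20). The peroxisomal thiolase Acaa1a overlapped, at 121 to 136 CPM in BAT and 112 to 125 in eWAT (log2 0.15, SE 0.11, adjusted p = 0.274). At the gate of the pathway the forms of carnitine palmitoyltransferase 1 went in opposite directions. Cpt1a, the liver form, was at 18.5 to 29.5 CPM in BAT and 95.6 to 140.4 in eWAT (log2 -2.34, SE 0.18, adjusted p = 7.31e-07). Cpt1b, the muscle form, was at 4.32 to 11.9 CPM in BAT and listed at 0 in 3 eWAT libraries and at 0.0865 in eWAT 13 (log2 8.29, SE 0.80), but its gene overlaps another, so its count is uncertain.

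Fatty acid synthesis split within the pathway. Of 23 genes 12 were higher in BAT and 3 in eWAT, with a median log2 difference of 0.43 (-0.27 with library totals, where 7 and 6 were called). The leading genes on the BAT side make palmitate and lengthen it. Fasn, fatty acid synthase, was at 17990, 13040, 16050 and 25260 CPM in BAT and 4948, 3041, 2857 and 4120 in eWAT (log2 2.27, SE 0.26, adjusted p = 1.84e-05). Acly, which makes cytosolic acetyl-CoA, differed by 2.95 (SE 0.34), Acaca, acetyl-CoA carboxylase 1, by 2.97 (SE 0.22) and Acacb, the mitochondrial carboxylase that makes the inhibitor of CPT1, by 3.58 (SE 0.18). Elovl6, which extends palmitate, was at 1169 to 1757 CPM in BAT and 43.6 to 77.9 in eWAT (log2 4.51, SE 0.25). BAT 18 had the highest value of Fasn, Acly, Acaca and Elovl6. Fads1, the delta-5 desaturase of polyunsaturated fatty acids, was lower in BAT, at 10.1 to 12.7 CPM against 57.9 to 86.7 (log2 -2.75, SE 0.17, adjusted p = 1.89e-07). Nr1h3, the sterol sensor LXR alpha, overlapped (log2 -0.18, SE 0.14, adjusted p = 0.325).

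Droplet and triglyceride genes differed in both directions, also within a family. Of 32 genes 15 were higher in BAT and 7 in eWAT (median log2 0.48, and -0.22 with library totals, where 14 were higher in eWAT). Plin5, which links droplets to mitochondria, was at 246, 418, 403 and 350 CPM in BAT and 14.7, 16.8, 17.0 and 16.0 in eWAT (log2 4.46, SE 0.19, adjusted p = 2.23e-08). Plin4, another perilipin, was at 530, 569, 444 and 561 CPM in BAT and 2911, 3410, 4186 and 3463 in eWAT (log2 -2.73, SE 0.17, adjusted p = 2.04e-07). The perilipins thus differed in opposite directions with no overlap in either. Gpd1, which makes glycerol 3-phosphate from a glycolytic intermediate, was at 6991 to 10480 CPM in BAT and 727 to 862 in eWAT (log2 3.48, SE 0.18). Mogat2, which acylates monoacylglycerol, was at 0.245 to 0.653 CPM in BAT and 9.16 to 16.9 in eWAT (log2 -4.96, SE 0.34, adjusted p = 3.82e-07). Abhd5, the activator of the triglyceride lipase ATGL, overlapped (log2 -0.05, SE 0.17, adjusted p = 0.819).

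Among 21 tested genes of fatty acid uptake and binding 8 were higher in BAT and 4 in eWAT. The median log2 difference was 0.19, and -0.51 with library totals, where the counts were 4 and 9. Without BAT 15 and 17, 5 were higher in BAT, and without eWAT 13 and 18, 2 were higher in eWAT. Fabp3, the heart-type binding protein, was at 803, 1879, 1447 and 1250 CPM in BAT and at 0.125, 0, 0.328 and 0.785 in eWAT (log2 12.10, SE 0.87, adjusted p = 8.00e-06). Its relative Fabp4, the abundant adipocyte form, was at 8382, 13460, 13680 and 12200 CPM in BAT and 10480, 10390, 11020 and 9823 in eWAT, with overlap (log2 0.19, SE 0.18, adjusted p = 0.403). Without BAT 12 alone, Fabp4 was called higher in BAT, with an adjusted p of 0.00294. Fabp5, the epidermal form, overlapped as well (log2 -0.16, SE 0.17, adjusted p = 0.466). Acsl5, which activates long-chain fatty acids, was at 584 to 684 CPM in BAT and 62.9 to 80.8 in eWAT (log2 3.12, SE 0.14). Lpl, the lipase that frees fatty acids from circulating triglyceride, was higher in eWAT, at 2666, 5061, 4965 and 3103 CPM in BAT and 12720, 12040, 13490 and 11860 in eWAT (log2 -1.67, SE 0.23, adjusted p = 8.11e-05). Slc27a2, a very long chain acyl-CoA synthetase, was at 81.6 to 190.4 CPM in BAT but ranged from 2.61 to 39.97 in eWAT, with eWAT 13 and 18 above eWAT 12 and 15. Its call (log2 2.93, SE 1.00, adjusted p = 0.0473) was lost in 11 of 17 alternatives, with adjusted p up to 0.234, including without any 1 of the BAT libraries and without eWAT 12, 13 or 15.

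Glucose handling was higher in BAT in 18 of 25 genes and higher in eWAT in 5 (median log2 1.68). Ppp1r3b, which directs protein phosphatase 1 to glycogen, was at 628, 368, 811 and 460 CPM in BAT and 29.0, 34.8, 19.9 and 22.4 in eWAT (log2 4.42, SE 0.29, adjusted p = 3.77e-07). Ldhb, the lactate-oxidising dehydrogenase subunit, differed by 4.00 (SE 0.20) and Pfkl, liver-type phosphofructokinase, by 3.43 (SE 0.21). Slc2a5, the fructose transporter, was at 24.5 to 84.7 CPM in BAT and 0.0937 to 1.29 in eWAT (log2 6.45, SE 0.77), and BAT 18 was highest. Hk3, a hexokinase of myeloid cells, was higher in eWAT (log2 -3.02, SE 0.43, adjusted p = 1.09e-04). Branched-chain amino acid catabolism was higher in BAT in 15 of 17 genes, with a median of 1.38. Bckdha, the subunit of the committed dehydrogenase, was at 549 to 866 CPM in BAT and 110.5 to 121 in eWAT (log2 2.74, SE 0.17). Bcat1, the cytosolic transaminase that starts the pathway, was higher in eWAT (0.14 to 2.03 against 5.15 to 10.6 CPM, log2 -2.92, SE 0.60, adjusted p = 0.00198).

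Receptors and their signalling differed in both directions. Of 25 tested genes 10 were higher in BAT and 8 in eWAT, with a median log2 difference of -0.01. With library totals the counts were 7 and 11 and the median -0.70. Adrb1, the beta-1 adrenergic receptor, was at 30.5, 32.9, 39.1 and 42.6 CPM in BAT and 3.63, 2.51, 4.73 and 3.55 in eWAT (log2 3.33, SE 0.21, adjusted p = 2.22e-07). Adrb3, the adipocyte beta-3 receptor, was at 219.1, 168.2, 178.7 and 220.1 CPM in BAT and 409.8, 369.6, 345.7 and 190.0 in eWAT. The depots overlapped for Adrb3 in that eWAT 18 lay within the BAT range. Its log2 difference was -0.74 (SE 0.22, adjusted p = 0.0133), and the call was lost without BAT 15 and 17 (highest adjusted p 0.1397 over the alternatives). A pair of adenylyl cyclases lay far apart. Adcy5 was at 1.26 to 4.58 CPM in BAT and 117 to 259 in eWAT (log2 -6.13, SE 0.47), and Adcy10, the soluble form that responds to bicarbonate, at 9.92 to 22.1 CPM in BAT and 0.67 to 1.34 in eWAT (log2 3.81, SE 0.33). Npr3, the clearance receptor that removes natriuretic peptides, was at 106.5 to 306 CPM in BAT and 1205 to 1535 in eWAT (log2 -2.92, SE 0.30). Ffar4, a fatty acid receptor, overlapped (log2 -0.01, SE 0.34, adjusted p = 0.985).

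Heat production outside UCP1 was represented by 16 tested genes of creatine and calcium cycling, 10 higher in BAT and 5 in eWAT (median log2 1.11). The 6 tested creatine genes were split, 3 higher in each depot. Gamt, which completes creatine, was at 2.77 to 4.65 CPM in BAT and 33.8 to 43.5 in eWAT (log2 -3.48, SE 0.19, adjusted p = 9.04e-08). Atp2a3, a calcium pump of the endoplasmic reticulum, was at 8.65, 6.13, 4.98 and 4.70 CPM in BAT and 115, 108, 176 and 118 in eWAT (log2 -4.39, SE 0.24). Muscle members of the list were high in particular libraries. Ckm, muscle creatine kinase, was at 0.806, 91.3, 12.4 and 0.320 CPM in BAT and at most 0.5005 in eWAT, and Atp2a1, the muscle calcium pump, at 1.12, 39.8, 7.26 and 0.961 in BAT and at most 0.0937 in eWAT. BAT 15 and 17, the highest for both, were also the highest of BAT for the skeletal muscle sum (682.5 and 200.1 CPM, against 110 and 80.4). Ckm is itself 1 of the 15 markers in that sum, and Atp2a1 is not. Without these libraries the call of Ckm (log2 7.20, SE 2.26, adjusted p = 0.0357) was lost and that of Atp2a1 (log2 8.01, SE 1.80, adjusted p = 0.00793) was kept at a smaller log2 difference of 4.45. Atp2a1 was lost without eWAT 13 and 18 (adjusted p = 0.0797). Ckm was lost in 10 of 16 alternatives, with adjusted p up to 0.572.

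Genes known from white adipocytes were higher in eWAT in 22 of 24 tested, with a median log2 difference of -3.76. Lep was at 119, 94.9, 104 and 177 CPM in BAT and 2388, 2686, 2553 and 3412 in eWAT (log2 -4.48, SE 0.24, adjusted p = 8.70e-08). BAT 18 and eWAT 18 were the highest of their depots. Mest, an imprinted gene linked to fat mass expansion, was at 1.16, 6.60, 3.18 and 6.404 CPM in BAT and 587, 678, 1099 and 1082 in eWAT (log2 -7.64, SE 0.61, adjusted p = 1.04e-05). Psat1, of serine synthesis, was the steadiest in eWAT at 168 to 181 CPM, against 1.72 to 6.20 in BAT (log2 -5.22, SE 0.35). Sult1e1, oestrogen sulphotransferase, differed by -5.08 (SE 0.43). Aspa, which splits N-acetylaspartate into acetate and aspartate, was the member higher in BAT (115 to 169 against 22.7 to 30.9 CPM, log2 2.49, SE 0.16, adjusted p = 1.90e-07). Rb1, the retinoblastoma protein, overlapped (log2 -0.15, SE 0.14, adjusted p = 0.405).

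Adipocyte genes shared by both depots were not level between them. Of 24 such genes 8 were higher in BAT and 11 in eWAT, with a median log2 difference of -0.36. With library totals these counts became 3 and 17 and the median -1.05. Cebpb, a regulator of adipogenesis, differed by 1.98 (SE 0.14) and Gpd1 by 3.48. Cavin1, a coat protein of caveolae, was at 310 to 439 CPM in BAT and 1380 to 2073 in eWAT (log2 -2.12, SE 0.18). Of the secreted factors, 11 of 12 white adipokines were higher in eWAT, with a median of -3.41. Of 14 tested factors known from brown fat 6 were higher in BAT and 5 in eWAT, with a median of 0.16 (-0.43 with library totals). Adipoq, adiponectin, was at 522, 1092, 1063 and 782 CPM in BAT and 2592, 2551, 3152 and 2164 in eWAT (log2 -1.60, SE 0.24, adjusted p = 1.50e-04). Retn, resistin, was at 12.0, 64.0, 72.2 and 32.5 CPM in BAT and 1508, 1440, 1002 and 948 in eWAT (log2 -4.76, SE 0.57). Sfrp5, which binds Wnt proteins, was at 0.587 to 2.41 CPM in BAT and 136 to 397 in eWAT (log2 -7.34, SE 0.54). Cfd, adipsin, differed by -2.67 (SE 0.54, adjusted p = 0.00339). S100b, a calcium-binding factor that promotes innervation of brown fat, was at 149.5 to 312 CPM in BAT and 3.98 to 7.83 in eWAT (log2 5.38, SE 0.29). Angptl4, which inhibits lipoprotein lipase, overlapped (log2 -0.79, SE 0.32, adjusted p = 0.0648), but was called higher in eWAT in 5 of 17 alternatives.

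**Figure D3:**
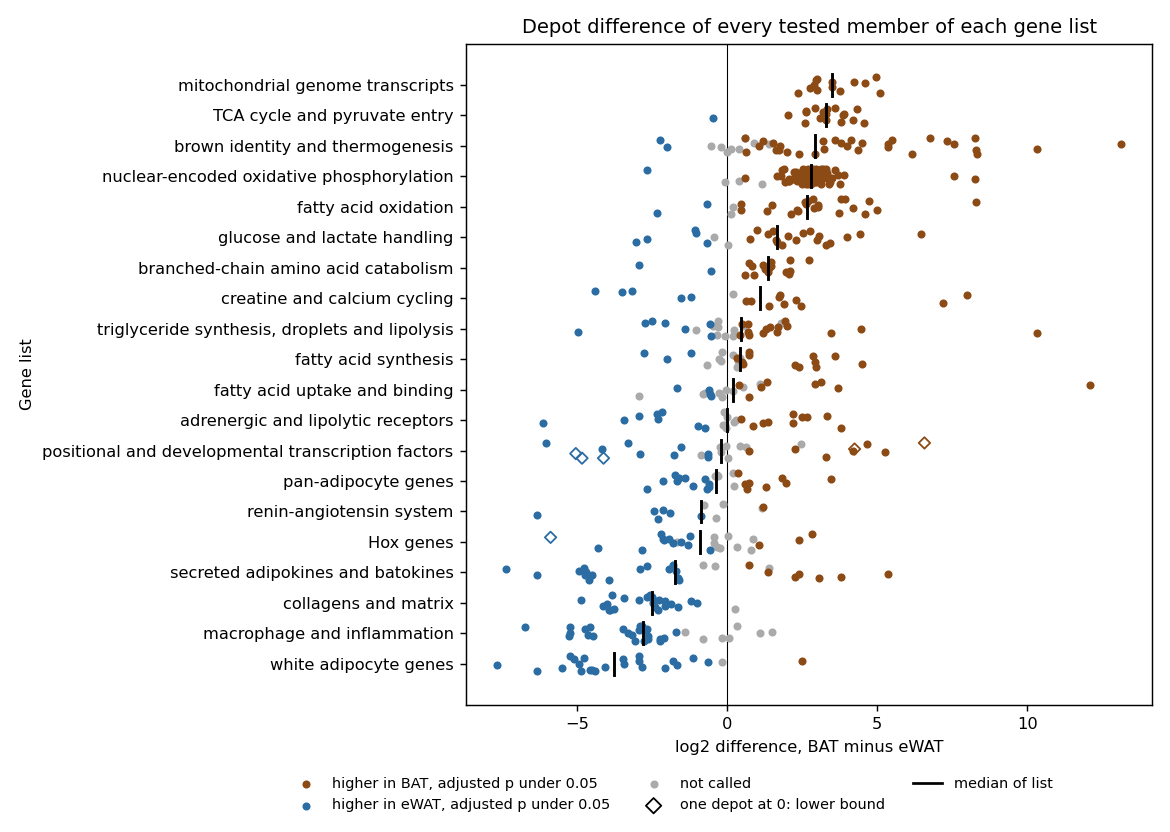
Log2 difference, BAT minus eWAT, of each tested member (points) of 20 gene lists, with the median of each list (bars) and diamonds at the lower bound where a depot had no count. Mitochondrial lists lie near 3, white adipocyte, macrophage and collagen lists between -4 and -2, and lipid storage lists spread to both sides of 0.

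Agt, the gene deleted in hepatocytes of the mutant littermates, was expressed in wild-type eWAT and close to absent from BAT. It measured 0.561, 2.29, 0.327 and 0.213 CPM in BAT and 74.0, 63.2, 98.2 and 51.8 in eWAT (log2 -6.31, SE 0.66, adjusted p = 9.06e-05). BAT 15 was the highest BAT library, and it also had the highest hepatocyte sum of BAT, 405 CPM against 23.9 to 149. In eWAT that sum was highest in eWAT 13 and 18 (3252 and 3131 CPM), the libraries lowest for Agt there. Over the eWAT libraries it was 1269 to 3252 CPM, with 1 of its 10 markers called higher in eWAT and 9 not called. The called one, Cyp2e1, a cytochrome P450, was at 11.6 to 92.0 CPM in BAT and 969 to 1284 in eWAT on the TMM scale. With eWAT TMM factors of 1.21 to 1.31, Cyp2e1 read higher still on the scale of the sum. It made up a large part of the sum in eWAT, and most of it in eWAT 12 and 15 (1445 and 1269 CPM). Whether that sum plays a part was not tested. Of 11 tested genes of the renin-angiotensin system 6 were higher in eWAT and 1 in BAT. Ace, the angiotensin-converting enzyme, was at 10.2, 11.3, 7.59 and 5.87 CPM in BAT and 42.9, 38.1, 40.7 and 49.6 in eWAT (log2 -2.29, SE 0.20, adjusted p = 2.62e-06). Enpep, aminopeptidase A, which shortens angiotensin II, differed by -2.44 (SE 0.21) and Anpep, aminopeptidase N, the next enzyme, by -2.14 (SE 0.23). Mme, neprilysin, which cuts angiotensin and natriuretic peptides, was the member higher in BAT, at 227 to 269.7 against 76.8 to 163 CPM (log2 1.21, SE 0.21, adjusted p = 4.93e-04). Agtr1a, the main angiotensin II receptor, overlapped (2.56 to 6.97 against 4.18 to 7.03 CPM, log2 -0.14, SE 0.36, adjusted p = 0.771). Of 7 tested converting enzymes in all, 4 were higher in eWAT, 1 was higher in BAT and 2 were not called.

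Developmental transcription factors differed between the depots in both directions. Of 48 positional factors 27 passed the filter on low counts, 8 of them called higher in BAT and 11 in eWAT. The shares of all genes were 23.3% and 27.7%. Zic1, a marker of dorsal, somite-derived fat, was at 6.66, 7.11, 6.37 and 5.34 CPM in BAT and had no count in eWAT, at least 95.4-fold higher with 3 counts in each library as floor. Zic4 lay at 0.854 to 2.10 CPM in BAT and had no count in eWAT, at least 19.0-fold higher. On the visceral side Wt1, of mesothelium and visceral fat progenitors, was at 3.42, 4.26, 3.65 and 4.66 CPM in eWAT and had no count in BAT, at least 32.7-fold lower. Tcf21, another factor of visceral progenitors, was at least 28.4-fold lower in BAT and Gata6 differed by -4.15 on the log2 scale (SE 0.36). Osr1 (log2 -3.30, SE 0.54) was higher in eWAT as well. Meox2, a homeobox gene of the somite, overlapped (log2 0.04, SE 0.24, adjusted p = 0.9). The mesothelium sum, 59.6 to 229.9 CPM in eWAT and 4.51 to 9.04 in BAT, moved with these genes across depots. Its highest libraries, eWAT 13 and 18, were also the highest of eWAT for Wt1, Tcf21 and Osr1. For Gata6 eWAT 18 was instead the lowest of eWAT, at 8.42 CPM. The part of mesothelium in these differences was not tested.

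Hox genes, whose clusters lay down position along the body axis, were called in both directions. Of 24 tested Hox genes 3 were higher in BAT and 12 in eWAT, beside 23.3% and 27.7% of all genes. The 3 were Hoxa3, Hoxa4 and Hoxa5, neighbours in cluster A. Hoxa3 overlapped between the depots and its call was lost with library totals, with the replicate block and without BAT 12, 17 or 18 or eWAT 13, 15 or 18, where 2 Hox genes were higher in BAT. Hoxa5 was at 22.5, 23.3, 30.0 and 23.2 CPM in BAT and 6.403, 4.456, 5.08 and 2.84 in eWAT (log2 2.40, SE 0.24, adjusted p = 6.79e-06), and Hoxa4 differed by 2.84 (SE 0.31). In cluster B 5 of 8 were higher in eWAT, led by Hoxb5 (log2 -2.81, SE 0.58, adjusted p = 0.00181). In cluster C, Hoxc5 overlapped (log2 0.04, SE 0.24, adjusted p = 0.905), while Hoxc8 was at 2.56, 8.66, 6.73 and 11.8 CPM in BAT and 145, 141, 167 and 127 in eWAT (log2 -4.29, SE 0.41). Hoxc9 had no count in BAT and 5.61 to 10.2 CPM in eWAT, at least 58.6-fold lower in BAT. All 3 tested members of cluster D were higher in eWAT. No tested member with a paralogue number from 7 to 9 was called higher in BAT. In wild-type mice at TN 4 of 24 tested Hox genes were higher in BAT and 3 in eWAT, all 3 in cluster C. The shares of all genes there were 21.1% and 21.4%. In hepAGT-/- mice at RT the Hox counts were 4 and 8, beside 22.6% and 22.8% of all genes. The remaining 15 of 39 Hox genes did not pass the filter on low counts.

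**Figure D4:**
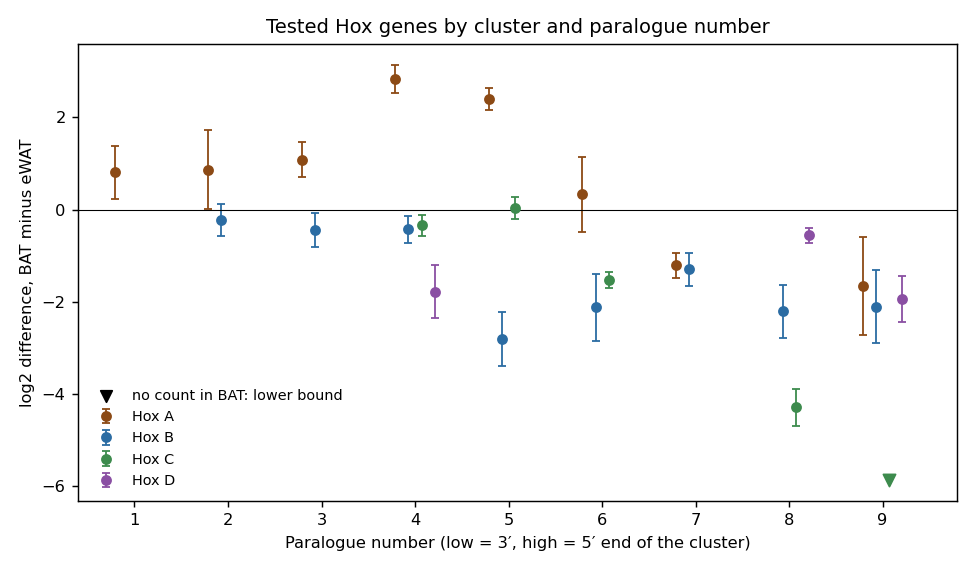
Log2 difference, BAT minus eWAT, of the 24 tested Hox genes against paralogue number, with standard errors, coloured by cluster; the triangle is the lower bound of Hoxc9, which had no count in BAT. Hoxa4 and Hoxa5 lie at 2.84 and 2.40, and the called genes from paralogue 7 upward lie below 0.

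Genes of macrophages, inflammation and matrix were mostly higher in eWAT. Of 32 tested genes of macrophages and inflammation 24 were higher in eWAT and 0 in BAT, with a median log2 difference of -2.80. Itgax, the integrin CD11c of obese fat macrophages, was at 0.1402, 1.21, 0.449 and 0.427 CPM in BAT and 9.84, 14.6, 14.6 and 20.9 in eWAT (log2 -4.71, SE 0.52, adjusted p = 2.57e-05). Mmp12, macrophage elastase, differed by -5.25 (SE 0.50). Ccl8, a chemokine, and Saa3, an acute phase protein, differed by -5.23 (SE 0.78) and -6.73 (SE 1.01), and both were highest in eWAT 13 and 18, the libraries with most mesothelium transcripts. Without those libraries 24 members were again higher in eWAT. Cd14, the endotoxin co-receptor, was not called (log2 -0.78, SE 0.33, adjusted p = 0.071), but was called higher in eWAT in 5 of 17 alternatives. Of 24 collagen and matrix genes 23 were higher in eWAT, with a median of -2.50. Col15a1, a basement membrane collagen, was at 22.5, 14.5, 22.0 and 21.0 CPM in BAT and 547, 528, 655 and 601 in eWAT (log2 -4.87, SE 0.19, adjusted p = 1.50e-08). Col18a1 (log2 -4.11, SE 0.24) and Col6a1 (log2 -3.99, SE 0.18) followed it. Postn, a matrix protein of fibrosis, was the member that overlapped (log2 0.27, SE 0.19, adjusted p = 0.254). Marker sums of other cells moved with these lists: the fibroblast sum was 188 to 305 CPM in BAT and 1107 to 1335 in eWAT, the lymphocyte sum 5.56 to 21.0 and 407 to 437. Of the tested markers 6 of 9 fibroblast and 2 of 11 lymphocyte genes were called higher in eWAT, beside 27.7% of all genes. Ighm, the immunoglobulin mu chain, 1 of the latter and named after its values were seen, was at 3.92 to 25.4 CPM in BAT and 307 to 347 in eWAT on the TMM scale. It made up most of the lymphocyte sum in eWAT. Other cell types were mixed. Of 11 endothelial markers 3 were higher in eWAT and 1 in BAT. Of 7 tested Schwann cell and nerve markers 2 were higher in eWAT and 4 in BAT. The part of these cell types was not tested.

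The genes with the largest differences, outside these lists for the most part, were of several kinds. Per depot 12 were taken by fold among genes at 5 CPM or more in each library of the higher depot. Those of BAT included Lgr6, an R-spondin receptor, at 117, 156, 143 and 112 CPM in BAT and 0.250 in eWAT 12 alone (log2 10.88, SE 0.67), and Rspo4, a ligand of that receptor family, at 5.12 to 16.5 CPM in BAT with no count in eWAT, at least 132-fold higher. Ligand and receptor family thus appeared together in BAT. Gldn, a gliomedin of the node of Ranvier, was at 75.1 to 126 CPM in BAT and at most 0.162 in eWAT (log2 10.72, SE 0.54). Perm1, a regulator of mitochondrial genes in muscle, was at 50.4 to 63.8 CPM and at most 0.141 (log2 9.97, SE 0.48), and Adprhl1, a cardiac muscle gene, at 26.2 to 51.1 and 0.185 in eWAT 18 alone (log2 9.52, SE 0.74). Perm1 and Adprhl1 were highest in BAT 18, which had the lowest muscle sum of BAT. In the other BAT libraries Perm1 was level, at 50.44 to 50.67 CPM. Whether muscle transcripts play a part in either gene was not tested.

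On the eWAT side Cacna1e, a neuronal calcium channel, had no count in BAT and was at least 86.0-fold lower there. Fgf13, an intracellular FGF, was at 46.6, 65.6, 90.1 and 66.3 CPM in eWAT and at most 0.270 in BAT (log2 -8.53, SE 0.45). Slc5a7, the choline transporter, was at 45.6, 61.6, 79.8 and 197 CPM in eWAT and at most 0.472 in BAT (log2 -8.91, SE 0.85). Its highest value was in eWAT 18, the library with epididymis transcripts. The rule that picked these genes asked for no overlap between depots, so the lack of overlap adds nothing here. Whether epididymis transcripts play a part was not tested. Upk3b, a mesothelial surface protein, was at 9.41, 60.1, 9.55 and 38.0 CPM in eWAT, highest in the 2 libraries with the highest mesothelium sum (log2 -8.19, SE 1.22). Col6a5 was also higher in those libraries, at 47.2 and 59.0 against 21.2 and 21.1 CPM (log2 -9.17, SE 0.89). Dnajc6, Folh1, Fam110c and C6, a terminal complement component, differed by -9.11 (SE 0.77), -8.84 (SE 0.55), -7.53 (SE 0.74) and -7.81 (SE 0.53).

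By difference of mean CPM, the 8 genes selected for BAT were mt-Co1, mt-Cytb, mt-Nd1, mt-Nd2, mt-Nd4, mt-Nd5, Fasn and Ucp1. The 8 for eWAT were Car3, Lpl, Gsn, Sparc, Trf, Plin4, Lep and Apoe. Car3, a carbonic anhydrase of adipocytes, was at 1218, 1590, 1891 and 889 CPM in BAT and 10300, 10450, 12210 and 7850 in eWAT (log2 -2.87, SE 0.25). Gsn, gelsolin, which severs actin, differed by -3.19 (SE 0.27) and Sparc, a matrix glycoprotein, by -2.51 (SE 0.20). Trf, transferrin, was at 30.1 to 185 CPM in BAT and 2790 to 3963 in eWAT (log2 -5.07, SE 0.57), and Apoe, the apolipoprotein, differed by -2.64 (SE 0.24). At the far end, 19 genes had at least 1 CPM in every BAT library and at most 3 counts in any eWAT library, and 44 genes the reverse.

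The same contrast was then run in libraries that the wild-type RT fit did not use. In hepAGT+/+ mice at TN 3580 of 16995 genes (21.1%) were higher in BAT and 3633 (21.4%) in eWAT, and 5.37% and 6.74% beyond 2-fold. Of the 1514 genes beyond 2-fold higher in BAT at RT 1444 were tested at TN, of which 1184 (82.0%) were called in the same direction and 4 in the opposite one. Of the 2199 eWAT genes 2136 were tested, 1667 (78.0%) called the same way and 9 the opposite way. The size was smaller at TN: the median log2 difference of the BAT genes was 1.42 there and 2.27 at RT, and that of the eWAT genes -1.58 and -2.66. These genes were picked by their size at RT, so the medians are given as a description. In hepAGT-/- mice at RT 3785 of 16741 genes (22.6%) were higher in BAT and 3820 (22.8%) in eWAT, 7.65% and 8.75% beyond 2-fold. There 1410 of 1490 tested BAT genes (94.6%) and 1739 of 2057 eWAT genes (84.5%) were called in the same direction, with 1 and 0 opposite. The medians were smaller in hepAGT-/- mice too. They were 1.86 against 2.31 in the wild type at RT for the BAT genes, and -2.02 against -2.62 for the eWAT genes.

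Where the depot difference itself changed with housing temperature was tested as an interaction, RT minus TN, over 16 wild-type libraries that include the 8 above. It was called in 3109 of 18680 genes (16.6%), 1681 with a positive sign (9.00%), meaning a higher ratio of BAT to eWAT at RT, and 1428 with a negative sign (7.64%). The median over all genes was -0.14 with TMM and -0.66 with library totals, with which 495 were positive and 4174 negative. Without BAT 12 of the WT RT group 4361 genes were called, and without TN BAT 24 4607. The mitochondrial lists moved together. Of 81 oxidative phosphorylation genes 73 were positive and 0 negative (median log2 1.20). With library totals 46 were positive and 1 negative. Uqcrc2 was at 2334 ± 438 CPM (SD, n = 4) in BAT at RT and 900.5 ± 217 at TN, and at 164 ± 19.4 and 145 ± 12.7 in eWAT (interaction log2 1.20, SE 0.25, adjusted p = 0.00426). The levels of the temperatures lay apart in BAT and were close in eWAT. TCA cycle genes were positive in 16 of 19, fatty acid oxidation in 20 of 26, branched-chain amino acid genes in 10 of 17 and glucose genes in 10 of 25, with 0, 0, 0 and 3 negative. With library totals these counts were 8, 8, 2 and 9 positive and 0, 1, 1 and 5 negative. Pdhb was in BAT at 1884 ± 349 CPM at RT and 420.5 ± 147 at TN (interaction log2 2.03, SE 0.27). The mitochondrial genome, by contrast, had 1 positive of 13 and a median of 0.30, which was -0.20 with library totals.

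With TMM scaling, fatty acid synthesis had more members called higher in BAT at RT and more called higher in eWAT at TN. Its interaction was positive in 13 of 23 genes and negative in 2, with a median log2 of 1.19 (2.04 over the 18 enzymes, and 0.65 over all 23 with library totals). At TN 4 of its 22 tested genes were higher in BAT and 10 were higher in eWAT, against 12 and 3 at RT. With library totals the RT counts were 7 and 6 and the RT median -0.27, so the side at RT depends on the scaling. Fasn was at 20210 ± 5857 CPM in BAT at RT and 1474 ± 1297 at TN, with 4029 ± 1041 and 2640 ± 702 in eWAT (interaction log2 3.17, SE 0.61, adjusted p = 0.00374). BAT thus held more Fasn than eWAT at RT, while at TN the depot difference of -0.86 was not called (adjusted p = 0.222). Elovl6 had an interaction of 3.21 (SE 0.32). Acsl5 was at 712 ± 58.2 CPM in BAT at RT and 63.3 ± 7.17 at TN, and at 78.8 ± 8.78 and 83.8 ± 6.42 in eWAT (interaction log2 3.58, SE 0.18, adjusted p = 2.13e-09). Fabp5 overlapped between the depots at RT and lay lower in BAT at TN, at 59.5 ± 9.24 against 271 ± 33.7 CPM (interaction log2 2.09, SE 0.23, adjusted p = 8.20e-05).

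**Figure D5:**
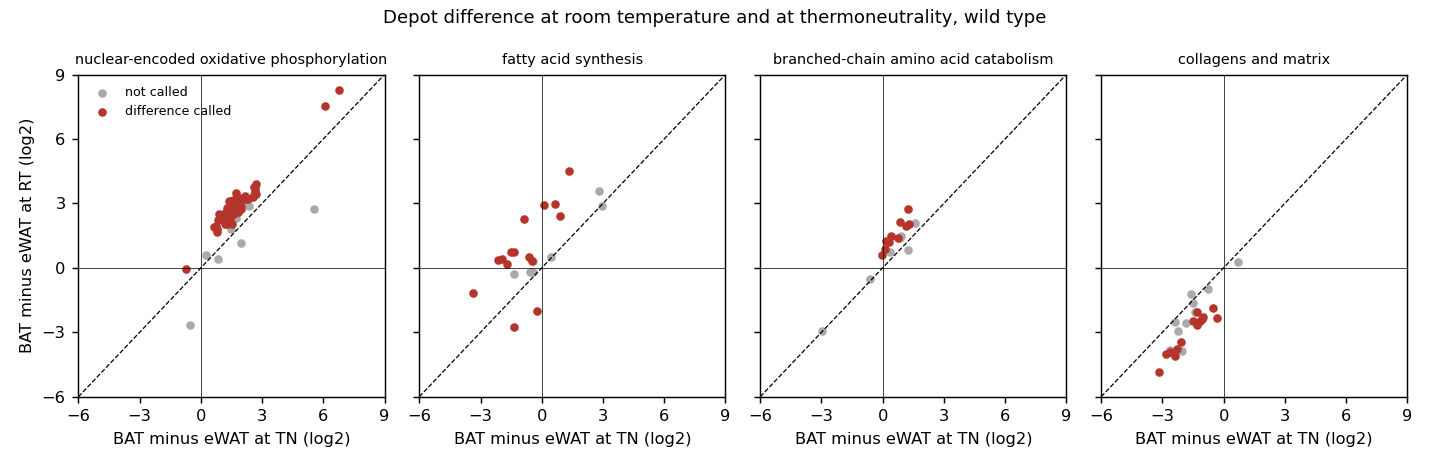
Depot difference (log2, BAT minus eWAT) of the members of 4 gene lists at thermoneutrality (x) and at room temperature (y) in wild-type mice; red points passed the interaction test and the dashed line marks equal differences. Most oxidative phosphorylation and fatty acid synthesis genes lie above the line (73 and 13 called) and 14 collagen and matrix genes are called below it.

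The brown markers behaved differently from each other. Elovl3 was at 308 ± 82.3 CPM in BAT at RT and 2.10 ± 2.11 at TN, where its depot difference was no longer called (log2 1.89, adjusted p = 0.106). Its interaction was 5.51 (SE 1.18, adjusted p = 0.00842). Acot11 was at 1053 ± 294 CPM in BAT at RT and 84.3 ± 48.4 at TN (interaction log2 3.85, SE 0.46). Ucp1 had 9147 ± 2825 CPM in BAT at RT and 2551 ± 1728 at TN, but its eWAT level was lower at TN as well, 0.254 ± 0.317 against 0.984 ± 0.659 CPM, and the ratio of the depots was not called different (interaction log2 -0.10, SE 0.83, adjusted p = 0.959). The eWAT level of Ucp1 reached 0 in a TN library, so the ratio rests on few counts. Over the 41 brown genes 9 were positive and 3 negative, against 4 and 7 with library totals. Ttc25, of cilia, had an interaction of 4.04 (SE 0.77) and Hephl1, a ferroxidase, of 4.72 (SE 0.95), with 16.9 ± 4.46 CPM in BAT at RT and 0.586 ± 0.909 at TN.

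Of 24 tested white adipocyte genes 7 had a negative interaction and 1 a positive one (0 positive and 13 negative with library totals). Several negative genes had a higher level in BAT at TN than at RT. Mest was at 4.88 ± 2.99 CPM in BAT at RT and 52.4 ± 19.3 at TN, with 928 ± 288 and 952 ± 185 in eWAT (interaction log2 -3.40, SE 0.58, adjusted p = 0.00208). Fgf13 was at 0.205 ± 0.139 and 3.40 ± 0.927 CPM in BAT at RT and TN, with 72.4 ± 19.6 and 78.7 ± 24.0 in eWAT (interaction log2 -3.94, SE 0.57). Col15a1 was at 22.3 ± 4.00 and 68.2 ± 12.3 CPM in BAT (interaction log2 -1.65, SE 0.23), and 14 of 24 collagen and matrix genes were negative and 0 positive. Lep was at 138 ± 42.0 CPM in BAT at RT and 301 ± 73.6 at TN, with 2972 ± 470 and 3229 ± 199 in eWAT (interaction log2 -1.002, SE 0.28, adjusted p = 0.0229). That call was lost without TN BAT 7 (highest adjusted p over the alternatives 0.0821). Cacna1e had no count in RT BAT and 0.642 ± 0.211 CPM in TN BAT (adjusted p = 6.84e-04). Agt was not called (interaction log2 -1.69, SE 1.00, adjusted p = 0.276). Mup12, of a cluster of near-identical genes, was called on values that ranged from 0.0763 to 908 CPM in RT eWAT, and leaving out any of 6 libraries ended the call (WT RT BAT 17 and 18, TN BAT 7, and TN eWAT 6, 7 or 8).

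The hepatocyte deletion of Agt was examined in the same way. The interaction, hepAGT-/- minus hepAGT+/+ at RT over 16 libraries that again include the 8 above, was called in 470 of 18518 genes (2.54%), 300 positive (1.62%) and 170 negative (0.918%). This count moved from 160 without the KO RT eWAT library 10 to 2010 without WT RT BAT 12. Branched-chain amino acid genes had 9 of 17 negative (median log2 -0.79), TCA cycle genes 7 of 19 (-0.73) and oxidative phosphorylation genes 7 of 81 (-0.72), with 0 positive in each. Without WT RT BAT 12 these became 13, 13 and 48. Collagen and matrix genes had 8 of 24 positive and 0 negative, and 12 positive without that library. The medians kept their signs with library totals. Col6a1 was at 497 ± 24.1 CPM in WT eWAT and 205 ± 39.8 in KO eWAT, and at 31.1 ± 6.56 and 36.4 ± 7.81 in BAT (interaction log2 1.504, SE 0.25, adjusted p = 0.00567).

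Mrc2, a collagen receptor, stood apart in eWAT. It was at 128 ± 51.5 CPM in WT eWAT and 8.24 ± 2.23 in KO eWAT, while BAT held 7.81 ± 0.796 and 8.85 ± 1.89 (interaction log2 4.14, SE 0.37, adjusted p = 7.73e-05). In KO mice the depot difference of Mrc2 was not called (log2 0.12, adjusted p = 0.710). Atp2a3 was at 134 ± 32.3 and 47.2 ± 15.2 CPM in WT and KO eWAT and 6.30 ± 1.85 and 18.4 ± 3.18 in BAT (interaction log2 3.04, SE 0.34, adjusted p = 3.34e-04). Ace had an interaction of 1.36 (SE 0.27, adjusted p = 0.0157), with 9.0 ± 2.53 CPM in WT BAT and 19.1 ± 2.37 in KO BAT. Angpt1, a vascular growth factor, was at 5.71 ± 1.74 CPM in WT eWAT and 17.8 ± 3.93 in KO eWAT (interaction log2 -2.26, SE 0.31, adjusted p = 0.00148). Gsta4, a glutathione transferase, had an interaction of -2.02 (SE 0.36). Slco4a1, an organic anion transporter, was at 9.00 ± 2.69 CPM in WT BAT and 19.0 ± 1.35 in KO BAT, with no count in KO eWAT (adjusted p = 0.0197).

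Ppargc1a was at 2.89 ± 0.379 CPM in WT eWAT and 7.08 ± 2.57 in KO eWAT, with 50.4 ± 12.7 and 45.3 ± 11.5 in BAT (interaction log2 -1.44, SE 0.34, adjusted p = 0.0323). Fgf13 was at 69.4 ± 18.5 CPM in WT eWAT and 9.25 ± 2.64 in KO eWAT (interaction log2 4.51, SE 0.99, adjusted p = 0.0337). Both calls were lost in 10 and 13 of 23 alternatives, with adjusted p up to 0.0928 and 0.375. Each was lost without WT RT BAT 15, without WT RT eWAT 13, 15 or 18, without KO RT BAT 19 and without KO RT eWAT 9 or 10. Lep was at 2851 ± 458 CPM in WT eWAT and 943 ± 107 in KO eWAT, and at 127 ± 38.4 and 27.9 ± 13.3 in BAT, and its interaction was not called (log2 -0.59, SE 0.37, adjusted p = 0.402). Agt itself, in fat, had 74.2 ± 20.6 CPM in WT eWAT and 125 ± 24.4 in KO eWAT, with an interaction of -0.24 (SE 1.23, adjusted p = 0.953). Ucp1 was not called either (interaction log2 1.99, SE 0.67, adjusted p = 0.120).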

How the data were processed

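RNA sequencing counts of 48 libraries were deposited; 8 (4 BAT, 4 eWAT, hepAGT+/+, RT) carry the main comparison and 16 more the related ones. The deposited values are raw counts per gene made by the authors, per the submitters' processing notes with fastp, STAR 2.6.1d and featureCounts 1.5.0-p3 on GRCm38; the annotation release, strand setting and treatment of multi-mapping reads are not given in the sources used here, so genes with near-identical copies, overlapping or antisense genes are uncertain. Per the labels, paired-end libraries were made with NEBNext Ultra from Maxwell RSC simplyRNA extracts. Of 56748 identifiers 52073 (91.8%) had a symbol, holding at least 94.8% of the counts of each library. No 2 libraries of a group were near-identical.

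Genes were filtered (filterByExpr, minimum count 10), TMM-scaled and tested in R 4.3.3 with edgeR 4.0.16 (robust quasi-likelihood F tests, Benjamini-Hochberg threshold 0.05, two-sided); calls beyond 2-fold used glmTreat at a log2 of 1. Interactions were fitted over 16 libraries with 1 mean per group. CPM values are TMM-scaled within each fit, so the same library reads slightly differently between fits. Where a depot had no count, the floor was 3 counts per library. The fits were also run on simulated counts built from the levels and spread of these libraries. Of genes changed by a log2 of 1, the depot fit recovered 34 of 100 and the temperature interaction 21 of 100. At a log2 of 2 these were 83 and 62 of 100, with 7 false calls in each fit. The simulated levels were averages over the groups, and only these genes were changed, out of 16207 in the depot fit. With so few changed genes the adjusted p is harder to pass than in the real fits. The shares recovered therefore do not measure the sensitivity of the real comparisons. The members and the gene lists were chosen with earlier results of these data known. Named genes were Ucp1, Elovl3, Lep and Agt, then by fixed ranks: per depot 12 by fold (every library of the higher depot at 5 CPM or more, no overlap) and 8 by CPM difference, up to 6 per list, 6 per direction of each interaction. Alternatives were RLE factors, library totals, other filters, DESeq2 1.42.0, a replicate block, all 32 adipose libraries and leaving out libraries; the removal of 2 libraries together was chosen after seeing the data. A few of the selected genes are not reported here.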

Additional observations from a re-analysis of the deposited data

Results flagged for a closer look

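In 24 of 244 groups of 4 libraries (9.84%), 1 library lay far from the other 3: its gap to the nearest, divided by the range of the group, was above the 95% critical value of Dixon's test for 4 values. Chance gives about 1 in 20. BAT 15 was that library 7 times, eWAT 15 5 times, BAT 18 4 times and BAT 12 3 times. Among the mitochondrial and lipid genes BAT 12 was low for Suclg1 (ratio 0.912) and Acaa2 (0.842) and high for Fads1 (0.961), and BAT 18 was high for Elovl6 (0.889). In eWAT 15 the values of Pdhb (0.857), Mogat2 (0.874), Atp2a3 (0.846), Gsn (0.847) and Cacna1e (0.83) stood apart. BAT 15 was high for Ckm (0.867), Atp2a1 (0.837) and Agt (0.833), and it also had the highest skeletal muscle and hepatocyte sums of BAT. Within eWAT, Agt was lowest in eWAT 13 and 18, which had the highest hepatocyte sums. BAT 18 was high for Perm1 (0.983) and Gldn (0.873), BAT 17 for Hoxa5 (0.887) and eWAT 12 for Ppargc1a (0.851). A ratio of 1.0 arose where 1 library of the lower depot had counts and the other 3 had none, for Cpt1b, Lgr6 and Adprhl1 in eWAT and for Col6a5, Dnajc6, Folh1, Upk3b and Fam110c in BAT.

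The depot difference itself differed between housing temperatures, by the test of the interaction, with positive log2 values (larger BAT share at RT) for Elovl3 (5.51), Hephl1 (4.72), Ttc25 (4.04), Acot11 (3.85), Acsl5 (3.58), Elovl6 (3.21), Fasn (3.17), Fabp5 (2.09), Pdhb (2.03) and Uqcrc2 (1.20). It was negative for Lep (-1.002), Col15a1 (-1.65), Mest (-3.40), Fgf13 (-3.94), Cacna1e (-7.04) and Mup12 (-14.18). The fitted values of Cacna1e and Mup12 rest on groups at or near 0 and are no measure of size. Between genotypes the interaction was positive for Slco4a1 (6.34, with KO eWAT at 0), Fgf13 (4.51), Mrc2 (4.14), Atp2a3 (3.04), Col6a1 (1.504) and Ace (1.36) and negative for Ppargc1a (-1.44), Gsta4 (-2.02) and Angpt1 (-2.26).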

How the results depend on the processing

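The depot comparison gave 8483 genes, 7649 to 9067 with 1 library left out, and 3473 to 3927 beyond 2-fold against 3713. The replicate block gave 6502 and 2930, and DESeq2 gave 3101 beyond 2-fold. Deviations of same-numbered libraries from their depot means had correlations of 0.135, -0.279 and -0.096 for 12, 15 and 18. So few pairs cannot settle whether equal numbers mark the same animal. The interaction with temperature (3109) moved to 4669 with library totals and 1675 with the replicate block, and ran from 2160 to 4607 with 1 library left out. That with genotype (470) moved to 262 with library totals, 271 with the replicate block, 1324 with DESeq2 and from 160 to 2010 with 1 library left out. The cause was not tested. Of 126 genes selected from the depot comparison 111 were called, 105 of them in every alternative run. The 6 others were Atp5g1 (adjusted p = 0.0935 with the replicate block), Pcx, Slc27a2, Ckm, Atp2a1 and Adrb3. Most genes were selected by ranks in these same data, which favours stable calls. Of the 15 genes not called, 8 were called in some alternative. With the block Elovl3 (adjusted p = 0.133), Lep and Mup12 lost their temperature calls, and Ace (0.056), Slco4a1 (0.439), Gsta4 (0.107) and Fgf13 their genotype calls. With 4 libraries a depot, an uncalled gene is not shown to be level.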
